A study of Homo sapiens with 26 samples.

Results

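The small nucleolar RNA host genes described here are 10 noncoding genes, SNHG1, SNHG4, SNHG5, SNHG8, SNHG12, SNHG15, SNHG16, GAS5, DANCR and ZFAS1, out of 12239 genes listed in at least 1 of 3 expression tables. All 10 were listed in all 3 tables, and all 10 passed the filter on low values in each. They were selected on gene class with their signal in every siRNA group against the controls of its table already known. Their changes against controls are therefore given as a description, with the call from the fit over all genes and without a p-value.

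The RNA came from 786-O cells, an established human line from a clear cell carcinoma of the kidney that lacks functional VHL. The 26 libraries formed 13 groups of 2. Of these, 3 groups were controls transfected with a non-targeting siRNA. The other 10 groups received a single siRNA, 2 per target, which were SART1 (siRNA 4 and siRNA 6), DDX39A (siRNA 1 and siRNA 4), SARNP (siRNA 3 and siRNA 9), FIBP (siRNA 6 and siRNA 7) and TMEM259 (siRNA 5 and siRNA 6). All cells were transfected with DharmaFECT 1, split at 24 h and harvested at 48 h, and carried no other agent or edit that the labels name. SART1 takes part in assembly of the spliceosome, DDX39A is an RNA helicase of mRNA export, SARNP binds RNA together with the export complex TREX, FIBP binds an acidic fibroblast growth factor inside the cell, and TMEM259 is a membrane protein of the endoplasmic reticulum. DDX39A and SARNP shared a table and its 2 control libraries, as did FIBP and TMEM259, while SART1 had a table of its own. The labels do not say if both libraries of a group stem from separate transfections, so the tests measure only the spread between these libraries, which may be technical.

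Most small nucleolar RNAs (snoRNAs) of human cells are cut out of the introns of longer host transcripts. They then guide the chemical modification of ribosomal RNA, box C/D snoRNAs in 2'-O-methylation and box H/ACA snoRNAs in pseudouridylation. The spliced exons of many noncoding hosts are read by ribosomes and removed by nonsense-mediated decay, and many of these genes start with a terminal oligopyrimidine (TOP) tract, the 5' end that ribosomal protein mRNAs carry. The level of such a host in poly(A) RNA therefore depends on transcription, splicing, export, translation and decay together, none of which was measured separately here.

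In RefSeq, 36 snoRNA genes lie inside the 10 hosts. GAS5 holds 11 of them and SNHG1 holds 8, all but 1 of these 19 of the box C/D kind. SNHG12 holds SNORA61, SNORA44, SNORA16A and SNORD99, SNHG16 holds SNORD1A, SNORD1B and SNORD1C, and ZFAS1 holds SNORD12, SNORD12B and SNORD12C. SNHG5 holds SNORD50A and SNORD50B, and SNHG4 holds SNORA74A and SNORA74D. SNHG8, SNHG15 and DANCR hold 1 each, SNORA24, SNORA9 and SNORA26. The hosts share this function of their introns, while their exons are unrelated noncoding transcripts with a median annotated length of 470 bases for SNHG8 to 1947 bases for SNHG16 in GENCODE 29.

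The annotated starts were searched for a TOP-like pyrimidine run, which the choice of genes did not use. RefSeq promoters on GRCh38.p14 matched 9 of the 10 genes by symbol. The motif searched was a C within 5 bases of the annotated start on the sense strand, followed by at least 4 bases that are each C or T. It was present in 7 of the 9 (77.8%), in 4 of 9 other noncoding host genes (44.4%), in 49 of 62 ribosomal protein genes of the tables (79%), in 22.7% of 9392 genes of the tables with a promoter and in 21.1% of all 35116 promoters. Below are 30 bases from 5 before the start, 5' to 3', with the pyrimidine run in capitals, for SNHG4 and SNHG12, which have the longest runs, for SNHG5, the host of highest level, for DANCR, which fell most after SNHG4, for ZFAS1, called higher by both SARNP siRNAs, and for GAS5, which has no run.
SNHG4, chr5:139274096-139274125, plus strand: ggctgCCCTTTCCCCTCCggcctctgccgg
SNHG12, chr1:28581849-28581878, minus strand: agcgCCCTTTCTCCCCgccgcattcccggt
SNHG5, chr6:85678709-85678738, minus strand: tcggtCTTTTacgtcggccttcgcgagcgt
DANCR, chr4:52712389-52712418, plus strand: gccccgCCCTTgcccagagtcttcccggga
ZFAS1, chr20:49278637-49278666, plus strand: tcgttCTTTCgcgtctgcggtgcccggagt
GAS5, chr1:173869021-173869050, minus strand: aattcagatgtgtttattttggagcctaca
The run was 13 bases in SNHG4 and 12 in SNHG12, and 5 or 6 bases in SNHG5, SNHG8, SNHG16, DANCR and ZFAS1. It began at the start base in SNHG4, SNHG5 and ZFAS1 and 1 base before it in SNHG12. In DANCR it began at base 2 and in SNHG16 at base 6, both with a G at the start, and in SNHG8 5 bases before the start. The motif counted is therefore wider than a TOP tract, which begins at the 5' end. No run was found in this window for SNHG1 or for GAS5 at the start that RefSeq gives.

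The targeted mRNA was lower with all 10 siRNAs, from 8.48% of control for SARNP siRNA 9 to 48.3% for TMEM259 siRNA 6. Gene reads per library were 9959064 to 18086176 in the DDX39A and SARNP table, 8966609 to 17018483 for FIBP and TMEM259, and 21710821 to 26128173 in the SART1 table. The host with the fewest reads was SNHG4, with at least 39 reads in every library, and every other host had at least 113. All 8 marker genes fixed for 786-O were listed in each table, among them PAX8 and EPAS1. Of 8 markers of other cell types, PTPRC, CD3E, PECAM1 and VWF were listed in no table, and the summed signal of the other 4 was 239 to 660 per library against 64839 to 197293 for the 786-O markers. These markers moved too: of the 8 for 786-O, 4 were called higher and 2 lower by both DDX39A siRNAs (CDH6 at 1.05 and 1.27), 2 and 2 with SARNP (AXL at -0.45 and -0.68), 1 and 2 with SART1, 1 and 1 with FIBP, and 0 and 1 with TMEM259. Of the markers of other types, COL1A1 was lower with SARNP (-0.92 and -1.32), and with FIBP CD68 was higher (0.32 and 0.46) and EPCAM lower (-0.53 and -0.49). Their part in the host changes was not tested.

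In control cells the level per kilobase of transcript put SNHG5 highest and SNHG4 lowest in all 3 tables. In the SART1 table SNHG5 stood at 10367 ± 51.7 per kb (SD, n = 2) and SNHG4 at 159 ± 2.59. Between them SNHG8 (4402 ± 84.7 per kb), ZFAS1 (4205 ± 87.1), GAS5 (4121 ± 1.25) and SNHG1 (3216 ± 6.4) formed an upper group. SNHG12 followed at 1714 ± 46.6 per kb, then DANCR at 699 ± 9.32, SNHG15 at 621 ± 22.4 and SNHG16 at 300.2 ± 25.2. The ranks of SNHG1, SNHG8, GAS5 and ZFAS1 changed from table to table, as did those of SNHG15 and SNHG16, so the order within these 2 sets is not fixed by the data. Lengths are the median of the annotated basic transcripts, so the order depends on which isoforms 786-O makes.

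**Figure D1:**
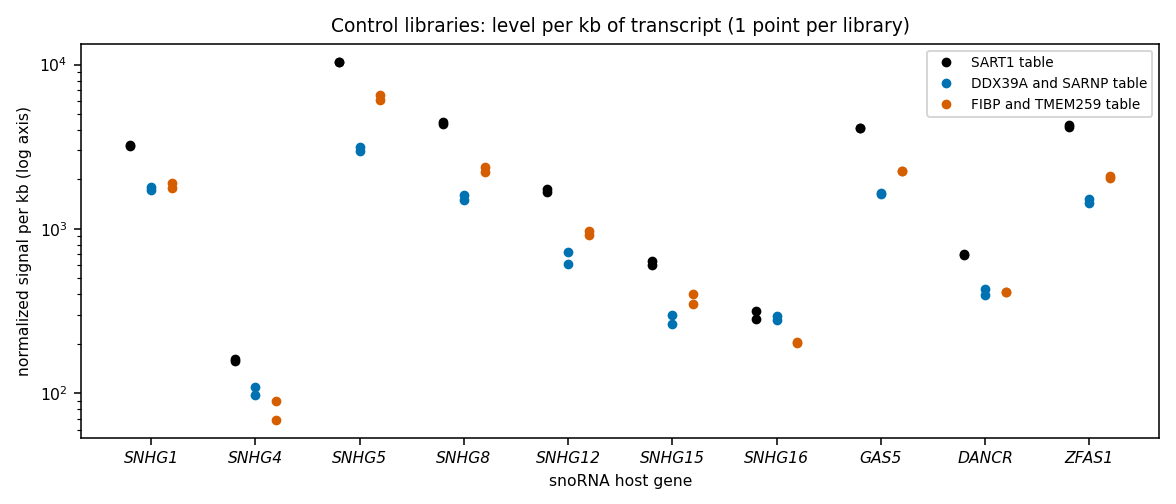
Normalized signal per kb of transcript (log axis) of each host gene in the 2 control libraries of each table, 1 point per library, with the 3 tables in 3 colours. SNHG5 is highest and SNHG4 lowest in each table, and tables were normalized apart, so their levels are not on 1 scale.

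Over the 100 pairs of a host and an siRNA, 56 were called against the controls at an adjusted p below 0.05 in limma. Of all genes, 19.4% (TMEM259 siRNA 6) to 62.9% (SART1 siRNA 6) were called with a single siRNA. Of the 56 host calls, 36 held under every alternative that was run. SNHG4 was the host with changes of 1 sign throughout, from -1.38 to -0.08 on the log2 scale, with 6 of its 10 changes called. GAS5 ranged from -0.38 to 0.07 with 4 called lower and 0 called higher. The other 8 hosts were called higher with at least 1 siRNA and lower with at least 1 other, so the 10 genes did not move as a block. Changes are given below on the log2(signal + 1) scale with the standard error (SE) of the model.

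**Figure D2:**
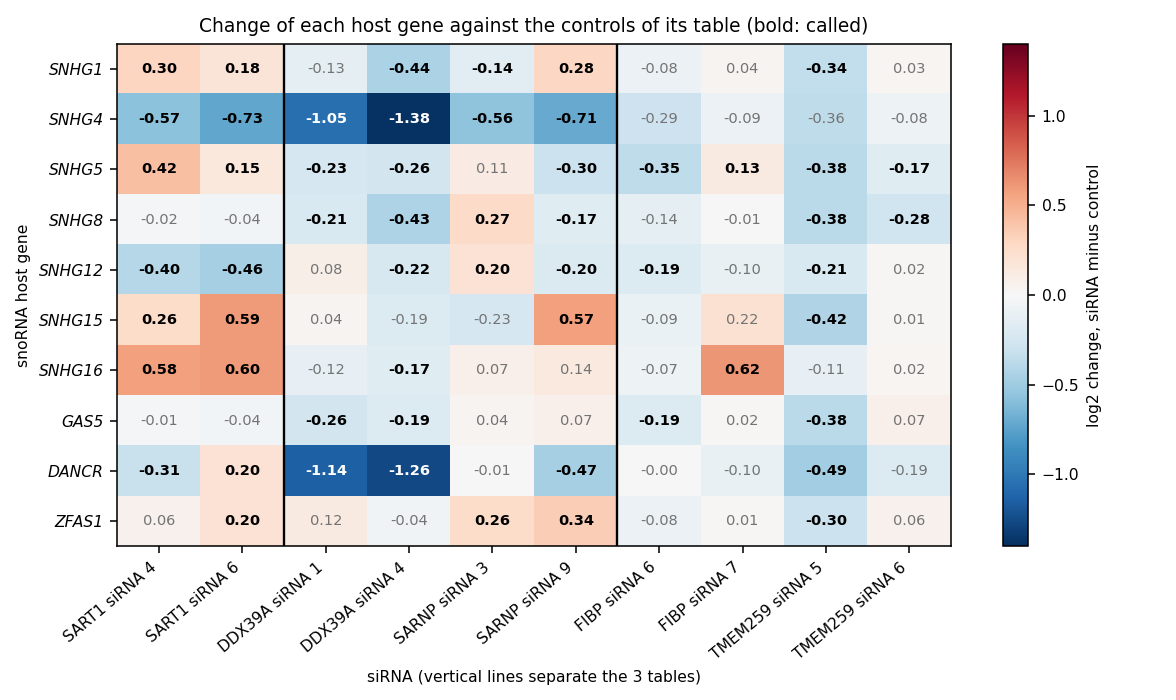
Log2 change of each host gene (rows) with each siRNA (columns) against the 2 controls of its table; red is higher, blue is lower, bold numbers are called and vertical lines separate the 3 tables. The largest falls are those of SNHG4 and DANCR with the DDX39A siRNAs, and the column of TMEM259 siRNA 5 is negative in all 10 rows.

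SART1 knockdown changed many genes, and hosts were called in both directions. SNHG1, SNHG5, SNHG15 and SNHG16 were called higher with both siRNAs, as were 22.9% of all 11823 genes tested, and SNHG4 and SNHG12 were called lower, as were 20.0%. The 2 of 10 called lower equal the share of all genes, and the 4 of 10 called higher stand against 22.9%. With quantile normalization the first count was 2 instead of 4, since SNHG1 (0.07) and SNHG5 (0.01) were then not called with siRNA 6. SNHG16, host of the 3 SNORD1 genes, read 619 and 549.9 in the controls, 873 and 867 with siRNA 4, and 875 and 891 with siRNA 6. All 4 knockdown libraries lay above both controls, with changes of 0.58 and 0.60 (SE 0.06). SNHG15 read 607 and 577 in the controls, 693 and 726 with siRNA 4, and 913 and 873 with siRNA 6, again without overlap, with changes of 0.26 and 0.59 (SE 0.06). SNHG5 rose from 7779 and 7834 to 10139.7 and 10831 with siRNA 4 (0.42, SE 0.03), and stood at 8623 and 8738 with siRNA 6 (0.15). SNHG1 changed by 0.30 and 0.18 (SE 0.04).

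The 2 hosts called lower after SART1 knockdown are those with the longest pyrimidine runs, a match noticed after the values were seen and not tested. SNHG12 read 1317 and 1267 in the controls, 934 and 1022 with siRNA 4, and 895 and 984 with siRNA 6, with changes of -0.40 and -0.46 (SE 0.06). SNHG4 read 166 and 162 in the controls, 110.0 and 109.8 with siRNA 4, and 93.9 and 104 with siRNA 6, with changes of -0.57 and -0.73 (SE 0.13). Neither gene had a knockdown library within the range of its controls. GAS5 and SNHG8 lay within 0.04 of 0 with both siRNAs and overlapped the controls. ZFAS1 was called with siRNA 6 (0.20, SE 0.04) and not with siRNA 4 (0.06), and the call was lost with quantile normalization (0.07). With siRNA 4 alone 7 hosts were called, 4 higher and 3 lower, where 57.7% of all genes were called in either direction, and with siRNA 6 alone 8 were, 6 higher and 2 lower, where 62.9% of all genes were.

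After DDX39A knockdown no host was called higher by both siRNAs, against 8.67% of all 11673 genes tested, and 5 were called lower, against 6.37%. These 5 were SNHG4, SNHG5, SNHG8, GAS5 and DANCR. DANCR, a noncoding RNA named for holding back differentiation, read 296 and 320.4 in the controls, 144 and 134 with siRNA 1, and 106 and 154 with siRNA 4. SNHG4 read 101 and 112 in the controls, 56 and 45.8 with siRNA 1, and 35.7 and 45.4 with siRNA 4, with changes of -1.05 and -1.38 (SE 0.19). These 2 genes fell to 38.1% to 47.8% of their control mean, with every knockdown library below both controls.

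The other 3 falls with DDX39A were smaller. GAS5, whose name comes from its rise in growth-arrested cells, read 980.2 and 992 in the controls, 808 and 837 with siRNA 1, and 854 and 878 with siRNA 4, with changes of -0.26 and -0.19 (SE 0.06). SNHG8 changed by -0.21 and -0.43 (SE 0.06), and SNHG5 by -0.23 and -0.26 (SE 0.06), both with all knockdown libraries below the controls. The count of 5 was 3 without DDX39A siRNA 4 replicate 1, where GAS5 and SNHG5 lost their call, and 3 without control replicate 2, where SNHG5 and SNHG8 did. With siRNA 1 alone 5 hosts were called, where 33.2% of all genes were called in either direction, and with siRNA 4 alone 8 were, where 49.0% were. All of these host calls were lower. The calls of SNHG12 (-0.22) and SNHG16 (-0.17) with siRNA 4 were each lost in 4 of the alternatives, among them the fits without either siRNA 4 library. ZFAS1 (0.12 and -0.04) and SNHG15 (0.04 and -0.19) were called with neither siRNA.

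**Figure D3:**
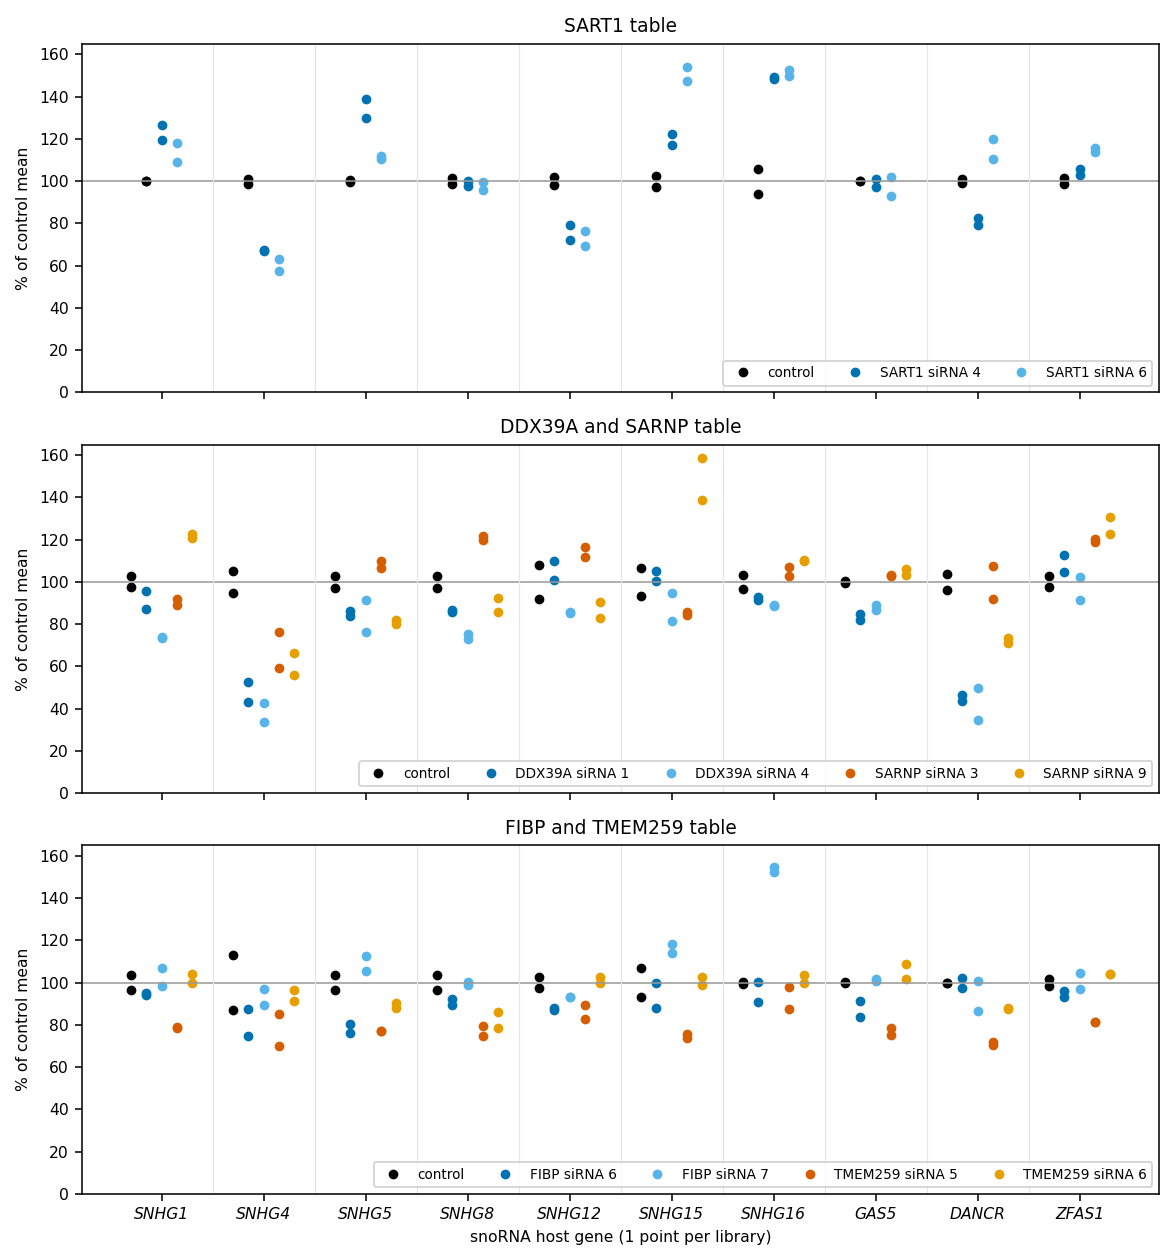
Signal of each host gene in every library as a percent of the mean of the 2 control libraries of its table, 1 point per library and 1 colour per group, with 1 panel per table and the axis starting at 0. DANCR and SNHG4 are the lowest hosts in all 4 DDX39A libraries, and SNHG16 lies above both controls in the 4 SART1 libraries and in both libraries of FIBP siRNA 7.

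After SARNP knockdown few hosts were called the same way by both siRNAs. ZFAS1, the host transcribed antisense to ZNFX1, was called higher by both, against 7.17% of all genes, and SNHG4 was called lower by both, against 7.15%. ZFAS1 read 1051 and 1107 in the controls, 1285 and 1297 with siRNA 3, and 1322 and 1412 with siRNA 9, with changes of 0.26 and 0.34 (SE 0.06) and no overlap. SNHG4 read 81.4 and 63.1 with siRNA 3 and 59.4 and 70.4 with siRNA 9, below the controls of 101 and 112, with changes of -0.56 and -0.71 (SE 0.19). The SNHG4 call with siRNA 3 was lost with DESeq2, without siRNA 3 replicate 2 (-0.38) and without control replicate 2 (-0.49), which leaves 0 hosts called lower by both. With siRNA 3 alone 5 hosts were called, 3 higher and 2 lower, where 41.3% of all genes were called in either direction, and with siRNA 9 alone 8 were, 3 higher and 5 lower, where 58.4% were.

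Differences between 2 siRNAs of a table follow from the changes against controls that were known when the genes were chosen, so they too are given with intervals and calls and without p-values. Direct contrasts of the 2 SARNP siRNAs, which use no control library, called 6 of the 10 hosts apart, where 64.1% of all genes were called. SNHG15 was 0.80 higher with siRNA 9 (SE 0.10, 95% interval 0.60 to 1.00), at 373 and 427 against 231 and 226 with siRNA 3. The siRNA 9 libraries of SNHG15 were above its controls of 286 and 251, and the siRNA 3 libraries were below them. SNHG1 was 0.43 higher with siRNA 9 (SE 0.05). SNHG5, SNHG8, SNHG12 and DANCR were lower with siRNA 9, by differences of -0.41, -0.44, -0.40 and -0.46. For GAS5, SNHG16, ZFAS1 and SNHG4 no difference was called, with 95% intervals of -0.09 to 0.14, -0.07 to 0.21, -0.04 to 0.20 and -0.53 to 0.24.

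DDX39A and SARNP were fitted in 1 table, so their 2-siRNA means could be set against each other. Of the 10 hosts, 9 were called higher with SARNP than with DDX39A, SNHG12 being the exception at 0.07 (95% interval -0.04 to 0.18), while 53.6% of all genes were called in either direction. DANCR differed most, by 0.97 (SE 0.09, 95% interval 0.79 to 1.14), with a mean signal of 265 against 134. SNHG4 differed by 0.58 (0.31 to 0.86), and the other 7 by 0.15 for SNHG5 to 0.37 for SNHG8. The means do not describe each siRNA: SNHG5 with SARNP siRNA 9 (mean signal 1863) was below both DDX39A siRNAs (1953 and 1924), as was SNHG15 with SARNP siRNA 3 (228 against 276 and 236). The fall of DANCR with DDX39A was known when the genes were chosen, so these differences have no p-value either.

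After FIBP knockdown 0 hosts were called higher and 0 lower by both siRNAs, against 4.68% and 4.39% of all 11768 genes tested. Each siRNA alone called some. With siRNA 6, 3 hosts were called, SNHG5, SNHG12 and GAS5, all lower, where 22.6% of all genes were called in either direction. With siRNA 7, 2 were called, SNHG5 and SNHG16, both higher, where 34.1% of all genes were called. SNHG16 read 392 and 396 in the controls, 394 and 357 with siRNA 6, and 609 and 601 with siRNA 7, so that both siRNA 7 libraries were above and the siRNA 6 libraries spanned the controls. The direct contrast of siRNA 7 with siRNA 6 was 0.69 for SNHG16 (SE 0.08). SNHG5 read 4921 and 4578 in the controls, 3623 and 3826 with siRNA 6, and 5020.0 and 5337 with siRNA 7, a contrast of 0.48 between siRNAs (SE 0.04). SNHG15 (0.31, SE 0.09) and GAS5 (0.21, SE 0.05) were also higher with siRNA 7 than with siRNA 6, which makes 4 hosts called apart where 35.7% of all genes were. The GAS5 call was lost without FIBP siRNA 6 replicate 1 and the SNHG15 call with DESeq2 and without FIBP siRNA 6 replicate 2. Against controls, the siRNA 6 calls of SNHG12 and GAS5 were lost in 5 and 2 of the alternatives.

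After TMEM259 knockdown SNHG5 and SNHG8 were called lower by both siRNAs, against 2.41% of all genes, and 0 hosts were called higher, against 2.56%. SNHG8 read 1122 and 1047 in the controls, 862 and 809.8 with siRNA 5, and 933 and 853 with siRNA 6, with changes of -0.38 and -0.28 (SE 0.06). SNHG5 read 3653 and 3659 with siRNA 5 and 4180.2 and 4280.4 with siRNA 6, all below its controls, with changes of -0.38 and -0.17 (SE 0.04). The SNHG5 call with siRNA 6 was lost without TMEM259 siRNA 6 replicate 1 (-0.15) and without control replicate 1 (-0.11), which leaves a count of 1.

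The TMEM259 siRNAs differed in reach. With siRNA 5 the median change of the hosts was -0.37, beside -0.0048 for all genes. With it 8 hosts were called, all lower, where 22.8% of all genes were called in either direction. Both libraries of all 10 hosts lay below both controls, but how many of all genes lay so was not counted. With siRNA 6 the median change was 0.02, and the 2 hosts named above were called, where 19.4% of all genes were. GAS5 shows the gap, with 1338 and 1342 in the controls, 1054 and 1010.2 with siRNA 5, and 1458 and 1362 with siRNA 6, a contrast of 0.45 between siRNAs (SE 0.05). In all, 7 hosts were called higher with siRNA 6 than with siRNA 5, where 32.1% of all genes were called in either direction, with contrasts from 0.21 for SNHG5 to 0.45 for GAS5. The call of DANCR (0.30) among these was lost in 4 of the alternatives and that of SNHG12 (0.23) in 2. TMEM259 itself was left at 30.3% of control with siRNA 5 and 48.3% with siRNA 6, and the part of that difference in the result was not tested.

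TMEM259 set against FIBP in their shared table called 6 hosts lower with TMEM259, where 37.1% of all genes were called in either direction. The differences ran from -0.32 for SNHG16 (95% interval -0.43 to -0.20) to -0.14 for SNHG1 (-0.21 to -0.06). The FIBP siRNAs were called apart on SNHG16 and the TMEM259 siRNAs on SNHG1, so these means do not describe each siRNA.

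The 2 siRNAs of SART1 and of DDX39A could be compared in the same way. SART1 siRNA 6 and siRNA 4 were called apart for 5 hosts, where 38.5% of all genes were. DANCR read 518 and 527 in the controls, 431 and 414 with SART1 siRNA 4, and 626 and 577 with SART1 siRNA 6, so the siRNAs lay on opposite sides, with a contrast of 0.51 (SE 0.07). SNHG15 (0.33, SE 0.06) was higher and SNHG5 (-0.27, SE 0.03) lower with siRNA 6. For DDX39A, siRNA 4 and siRNA 1 were called apart for 5 hosts, where 50.6% of all genes were, and the 5 were all lower with siRNA 4, from -0.31 for SNHG1 (SE 0.05) to -0.17 for ZFAS1 (SE 0.06). That count was 3 with DESeq2, without DDX39A siRNA 1 replicate 1 or without DDX39A siRNA 4 replicate 1. Among the 5, the call of SNHG15 (-0.23) was lost in 8 of the alternatives and that of ZFAS1 in 3. DANCR and SNHG4 were not called apart, with 95% intervals of the difference of -0.37 to 0.13 and -0.71 to 0.06.

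**Figure D4:**
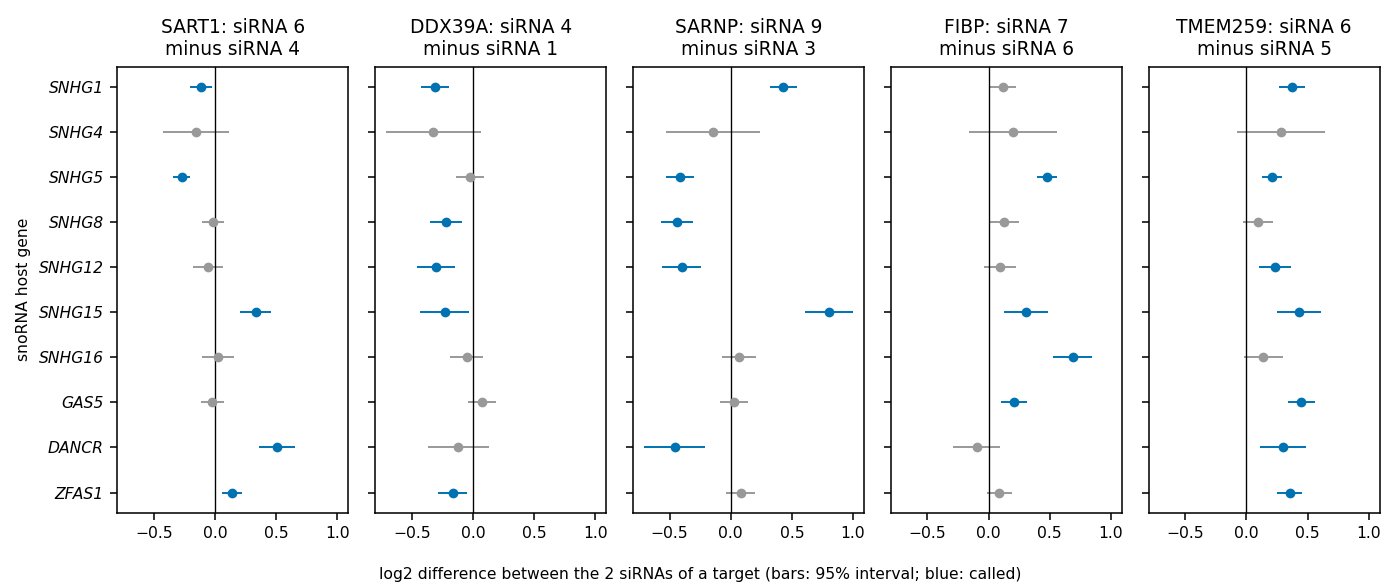
Log2 difference between the 2 siRNAs of each target for the 10 host genes, with 95% intervals from the model; blue points are called and grey points are not. SARNP shows differences in both directions from -0.46 to 0.80, while all 7 called differences of TMEM259 are positive.

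The snoRNA genes inside the hosts had rows of their own, which gave a readout that the choice of genes did not use, though this comparison was added after the tables were seen. Of the 36 snoRNA genes, 26 were tested in at least 1 table, 13 of them in the DDX39A and SARNP table, 24 in the FIBP and TMEM259 table and 25 in the SART1 table. Mature snoRNAs are short and lack a poly(A) tail, so what their signal in these libraries represents (mature RNA, its precursor or unspliced host) was not tested. Of 198 pairs of a snoRNA and an siRNA, 16 were called, 8 higher and 8 lower. Of all genes, 19.4% to 62.9% were called with a single siRNA. In 15 of the 16 called pairs the host was called with the same sign. The pairs share control libraries and hosts, so they are not independent. The host was called in 107 of the 198 pairs, and the sign of the snoRNA matched it in 75 of these.

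SNORA61, a box H/ACA snoRNA inside SNHG12, was the one with the highest signal among the called. In the SART1 table it read 260.3 and 294 in the controls, 216 and 209 with siRNA 4, and 169 and 177 with siRNA 6. All 4 knockdown libraries were below both controls, with changes of -0.38 (SE 0.10, adjusted p = 0.0029 in limma) and -0.68 (adjusted p = 4.5e-06), beside -0.40 and -0.46 for SNHG12. The siRNA 4 call was lost without control replicate 2. The other 3 snoRNAs of SNHG12 were not called with either SART1 siRNA.

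SNORD50B, a box C/D snoRNA inside SNHG5, read 40.4 and 25.3 in the SART1 controls, 63 and 59.3 with siRNA 4, and 53.7 and 79.4 with siRNA 6. Its changes were 0.91 and 1.01 (SE 0.23, adjusted p = 0.0019 and 0.00069 in limma), larger than the 0.42 and 0.15 of SNHG5, and the siRNA 4 call was lost without control replicate 2. SNORD50B was also called higher with FIBP siRNA 7 (1.12, SE 0.38, adjusted p = 0.018 in limma), where SNHG5 changed by 0.13, and that call was lost without control replicate 1 or FIBP siRNA 7 replicate 2. Inside SNHG1, SNORD28 read 41.4 and 41 in the SART1 controls, 60.2 and 68.2 with siRNA 4, and 68.1 and 69.1 with siRNA 6, without overlap, and was called with both siRNAs (0.63 and 0.72, SE 0.19, adjusted p = 0.0069 and 0.002 in limma). The siRNA 4 call of SNORD28 was lost with DESeq2 and without SART1 siRNA 4 replicate 2. SNORD22 and SNORD30, also inside SNHG1, had changes of -0.28 and -0.10 and of -0.30 and -0.40 with the same siRNAs and were not called, so the snoRNAs of 1 host did not all move with it.

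In the DDX39A table, SNORD80 inside GAS5 read 57.3 and 67.3 in the controls, 62.4 and 61.9 with siRNA 1, and 31.2 and 35 with siRNA 4. The siRNA 4 libraries were below and the siRNA 1 libraries within the controls, with a change of -0.89 for siRNA 4 (SE 0.19, adjusted p = 0.00019 in limma) beside -0.19 for GAS5. SNORD99 inside SNHG12 (-1.28, SE 0.34, adjusted p = 0.002 in limma), SNORD25 inside SNHG1 (-1.27, adjusted p = 0.0068) and SNORD22 inside SNHG1 (-0.87, adjusted p = 0.01) were lower with the same siRNA. The signal of SNORD25 and SNORD22 was low, with a control mean of 18.6 for SNORD25. SNORD22 stood at 40.5 ± 10.7 (SD, n = 2) in the controls and 22.0 ± 8.01 with siRNA 4. The SNORD25 and SNORD22 calls were lost with DESeq2. The SNORD25 call was also lost without DDX39A siRNA 4 replicate 1, and the SNORD22 call without DDX39A siRNA 4 replicate 2 or control replicate 2.

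**Figure D5:**
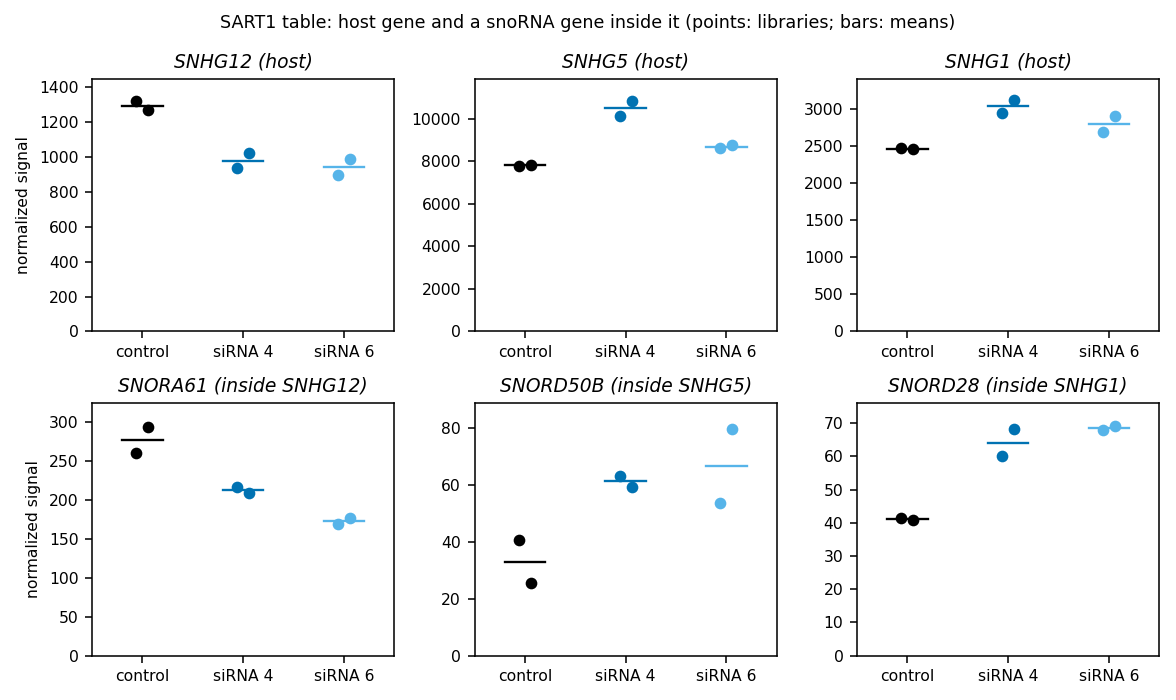
Normalized signal in the SART1 table of SNHG12, SNHG5 and SNHG1 (upper panels) and of a snoRNA gene inside each (lower panels), with 1 point per library, bars at the group mean and axes from 0. The 3 snoRNA genes shown are those called with both SART1 siRNAs, and each moved in the direction of its host.

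Some hosts overlap other genes, and the strand used for counting is not given in the sources used here. In GENCODE 29, 14% of the exon bases of SNHG4 overlap MATR3 on the same strand and 2.64% overlap SIL1 on the opposite strand, while 11.1% of those of ZFAS1 overlap ZNFX1 on the opposite strand. With the DDX39A siRNAs, where SNHG4 was at -1.05 and -1.38, MATR3 was called lower (-0.18 and -0.36) and SIL1 higher (0.18 and 0.39). With the SART1 siRNAs, where SNHG4 was at -0.57 and -0.73, MATR3 was called higher (0.16 and 0.15). ZNFX1 changed by 0.09 and 0.12 with the SARNP siRNAs, where ZFAS1 changed by 0.26 and 0.34, and TRNAU1AP, which overlaps SNHG12 over 0.188% of its exon bases on the opposite strand, was called lower with both SART1 siRNAs (-0.48 and -0.44). The part of these neighbours in the host values was not tested.

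Of 14 other noncoding hosts in the tables, 5 were called lower and 0 higher by both DDX39A siRNAs, where 6.37% and 8.67% of all genes were, with a median change of -0.29 beside -0.23 for the 10 hosts, while the median of all genes was within 0.01 of 0. SNHG3, host of box H/ACA snoRNAs, changed by -0.59 and -0.79 (SE 0.11), and SNHG10 by -0.78 and -0.69 (SE 0.23). With SART1 2 of the 14 were called higher and 2 lower, both below the shares of all genes (22.9% and 20.0%), with SNHG17 at 0.40 and 0.64 (SE 0.07) and SNHG25 at -0.56 and -0.52 (SE 0.13). With SARNP, where 7.17% of all genes were higher and 7.15% lower, 1 was called higher, LRRC75A-AS1, also known as SNHG29, at 0.20 and 0.30 (SE 0.06), and 0 lower. With FIBP, where the shares were 4.68% and 4.39%, 0 were called higher and 2 lower, SNHG7 (-0.47 and -0.24, SE 0.06) and SNHG6 (-0.36 and -0.22, SE 0.05), and with TMEM259, where they were 2.56% and 2.41%, 0 were called in either direction. The list medians were 0.12 for SARNP, -0.11 for FIBP and -0.13 for TMEM259, beside 0.05, -0.06 and -0.18 for the 10 hosts.

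Proteins that act on snoRNAs, and coding genes that host them, were counted next. Of 18 proteins of snoRNA particles and their assembly factors, 12 were called higher and 1 lower by both SART1 siRNAs, with a median of 0.23, and of 45 protein-coding snoRNA hosts 17 were higher and 1 lower, with a median of 0.11. The shares of all genes were 22.9% higher and 20.0% lower. The remaining 5 of these 18 and 27 of these 45 genes were called in neither direction by both siRNAs. ZNHIT6, an assembly factor of box C/D particles, changed by 0.47 and 0.78 (SE 0.04). NOP58, a core protein of those particles and itself a snoRNA host, changed by 0.46 and 0.43 (SE 0.03), and TAF1D, a coding host, by 0.59 and 0.69 (SE 0.05). For the particle proteins the counts higher and lower were 0 and 2 with DDX39A (NUFIP1 at -0.46 and -0.40, NOP10 at -0.17 and -0.26), 1 and 1 with SARNP (SHQ1 at 0.23 and 0.38, NHP2 at -0.18 and -0.24), 3 and 1 with FIBP (GAR1 at 0.23 and 0.24, NOP10 at 0.20 and 0.30) and 0 and 0 with TMEM259. For the coding hosts they were 0 and 2 with DDX39A (RPL13A at -0.25 and -0.51), 1 and 5 with SARNP (EIF4A2 at 0.22 and 0.24, RPL12 at -0.19 and -0.34), 3 and 3 with FIBP (DKC1 at 0.20 and 0.15, RPL3 at -0.15 and -0.20) and 0 and 1 with TMEM259 (ATP5B at -0.12 and -0.14). The shares of all genes called higher and lower by both siRNAs were 8.67% and 6.37% with DDX39A, 7.17% and 7.15% with SARNP, 4.68% and 4.39% with FIBP, and 2.56% and 2.41% with TMEM259.

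Factors of nonsense-mediated decay and coding mRNAs known as its substrates were counted in the same way, against the same shares of all genes (22.9% higher and 20.0% lower with SART1, and for the other targets as just given). Of 18 decay factors, 10 were called higher and 5 lower by both SART1 siRNAs, among them MAGOHB, a protein of the exon junction complex (0.44 and 0.56, SE 0.04), and 0 were higher and 2 lower with DDX39A, namely UPF3B (-0.47 and -0.28, SE 0.07) and UPF2 (-0.45 and -0.22, SE 0.06). SARNP gave 1 higher, MAGOHB (0.24 and 0.35), and FIBP and TMEM259 gave 0 in either direction. Of 10 substrates, 4 were higher and 0 lower with SART1, where ATF3, a stress-induced transcription factor, changed by 0.85 and 0.85 (SE 0.10) and GADD45A, a growth arrest gene, by 0.61 and 0.89 (SE 0.04). DDX39A gave 0 and 0, SARNP 1 and 2, FIBP 4 and 2, and TMEM259 0 and 1. Several of these substrates also respond to stress, so a count over them is not a measure of decay.

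Of 20 TOP genes of translation other than ribosomal proteins, 10 were higher and 0 lower with both SART1 siRNAs, where 22.9% and 20.0% of all genes were. The list median was 0.14 while that of all genes was within 0.01 of 0, and the genes higher included the initiation factors EIF4B (0.31 and 0.35, SE 0.03) and EIF3E (0.24 and 0.29, SE 0.03). With the DDX39A siRNAs 1 was lower, PABPC1, the cytoplasmic poly(A)-binding protein (-0.17 and -0.20, SE 0.04). Of the hosts with a pyrimidine run, SNHG4 and SNHG12 (13 and 12 bases) were called lower with both SART1 siRNAs. SNHG5 and SNHG16 (5 and 6 bases) were called higher with both. SNHG8, DANCR and ZFAS1 were not called the same way by both. A link between the run and these changes was not tested. PABPC1 was also lower with both SARNP siRNAs (-0.24 and -0.17), a sign that reversed to 0.07 for siRNA 9 with quantile normalization, and with TMEM259 1 was lower, NAP1L1 (-0.17 and -0.10), while FIBP gave 0 in either direction.

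For each host the gene with the most similar pattern was sought over its 10 log2 changes, as a description over 10 siRNAs that share controls within a table. Each r is the largest among 11486 genes over only 10 values, so its size is no sign of a relation. The nearest genes by Pearson r were HNRNPA1L2 for SNHG1 (0.97), ICA1L for SNHG4 (0.96), COX14 for SNHG5 (0.92), NDUFAF7 for SNHG8 (0.94), UHRF1 for SNHG12 (0.95), MRPS36 for SNHG15 (0.96), SNORA63 for SNHG16 (0.94), SNHG7 for GAS5 (0.92), PARPBP for DANCR (0.91) and RPAIN for ZFAS1 (0.96).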

How the data were processed

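Poly(A) RNA was selected with poly-dT beads and made into strand-marked libraries (NEBNext Ultra II Directional) read as pairs of 42 bases on a NextSeq 550, per the labels' protocols. STAR, Picard, HTSeq, DESeq2 and the build hg19 are named in the submitters' processing notes, without versions or roles. The annotation and the strand setting of the counting are not given in the sources used here. The deposited values are a normalized signal, which the authors made from read counts: within a library each value is a whole number of reads divided by 1 size factor (100% of values whole within 0.0001 reads), so reads and depth could be recovered. HTSeq's summary entries were kept out of library sizes and tests; reads outside genes were 8.53 to 9.02% in the SART1 table, 5.79 to 6.46% in that of DDX39A and SARNP and 7.13 to 7.76% in that of FIBP and TMEM259.

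In each table separately, genes with a mean signal of at least 10 were fitted on log2(signal + 1) in 1 limma trend model over all groups (limma 3.58.1, R 4.3.3), with Benjamini-Hochberg adjustment over all genes tested and a call at an adjusted p below 0.05. Adding 1 understates the change of low genes. The fit was tested on simulated data. Fits of the recovered reads with edgeR 4.0.16 (TMM) and DESeq2 1.42.0 were alternatives, with quantile normalization, a pseudocount of 5, a minimum mean of 50 or none, only the compared groups, a replicate block, and each library left out. Since each group had 2 libraries, a library left out leaves a lone one that is assumed to vary like the other groups. Counting error weighs most on SNHG4, with as few as 39 reads in a library, while every other host had at least 113.

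Named genes are the 10 hosts, the 5 targets, for each list and target up to 2 genes called by both siRNAs with the same sign and the largest smaller change, and for each host the gene with the most similar 10 changes. SnoRNAs inside hosts, from RefSeq gene bounds, and overlapping genes, from GENCODE 29, were added after the tables were seen. The members and lists were chosen with earlier results of these data known, so genes named from the lists are also given without p-values. SNHG15 had no promoter entry.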

Additional observations from a re-analysis of the deposited data

Results flagged for a closer look

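In 5 cases the 2 siRNAs of a target were called against the same controls in opposite directions, and limma's contrast between them was called as well. DANCR was lower with SART1 siRNA 4 (-0.31) and higher with siRNA 6 (0.20), a difference of 0.51. The siRNA 6 call was lost with DESeq2, without SART1 siRNA 6 replicate 1 (0.14) and without control replicate 1 (0.19). With SARNP siRNA 9 against siRNA 3, SNHG1 differed by 0.43, SNHG8 by -0.44 and SNHG12 by -0.40. Of their 6 calls against controls, those of SNHG1 with siRNA 3 (-0.14), SNHG8 with siRNA 9 (-0.17) and SNHG12 with both siRNAs (0.20 and -0.20) were lost under 3 to 5 alternatives each. SNHG5 differed by 0.48 between FIBP siRNA 7 (0.13) and siRNA 6 (-0.35), and its siRNA 7 call was lost without FIBP siRNA 7 replicate 2 (0.08) or control replicate 2 (0.07). The 5 differences between siRNAs were called under every alternative that was run.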

How the results depend on the processing

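Of the 100 changes of a host against controls, 36 of 56 calls held under every alternative. Over all alternatives 1138 values kept their side of the threshold, 51 lost the call and 11 gained it. Of the changes called in the main fit 0 reversed, while the sign of uncalled changes was not compared. The count of hosts higher with both SART1 siRNAs was 2 instead of 4 with quantile normalization. Hosts lower with both SARNP siRNAs were 0 instead of 1 with DESeq2, and hosts called between the DDX39A siRNAs 3 instead of 5. Leaving out 1 library gave 3 to 6 hosts lower with DDX39A, 0 to 1 lower with SARNP, 1 to 2 lower with TMEM259 and 3 to 7 called between the DDX39A siRNAs. For other genes, PABPC1 with SARNP siRNA 9 reversed from -0.17 to 0.0717 with quantile normalization. The causes were not tested. Of 70 differences between siRNAs or targets, 57 kept their call or lack of one under every alternative that fitted them. The same held for 5 of 16 called snoRNA values and 72 of 104 values of genes named from the lists. A gene removed by the filter of an alternative was not judged there. Fits that gave no adjusted p (3 for the snoRNAs, 1 for the list genes) were counted as kept. Over all genes tested, same-numbered libraries did not deviate together (correlations -0.06 to 0.05). The labels do not say what same-numbered libraries share, and a correlation over all genes cannot show an effect on few of them. With a replicate block no host call against controls changed, and the count between the DDX39A siRNAs was 4 instead of 5. Depth limits the snoRNAs more than the hosts, since most called snoRNAs had a control mean below that of SNHG4.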
